A study of Mus musculus with 6 samples.

Results

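The matrix-binding integrin alpha chains were taken as 10 genes, Itga1, Itga2, Itga3, Itga5, Itga6, Itga7, Itga8, Itga9, Itga10 and Itga11, matched by gene symbol among the 57010 genes of the count table. Filtering on low counts left 18114 genes to be tested, among them 9 of the 10, and Itga7 was the chain that did not pass. RNA came from monocytes of the femur (libraries S13, S15 and S18) and of the mandible (S16, S19 and S23), 3 libraries for each skeletal site. All mice were C57BL/6, 1 year of age, with no genotype or treatment beyond the isolation named in the labels, and the cells of both sites came out of flushed bone marrow by the same monocyte isolation kit. The study used male and female mice, and neither the sex nor the number of animals behind a library is given in the sources used here, so p-values measure the spread between these 6 libraries, which may be in part technical. The question was how precursors of osteoclasts differ between the jaw and a long bone.

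Integrins are receptors of an alpha and a beta chain that tie cells to the extracellular matrix. The alpha chain sets most of the ligand specificity, and every chain described here pairs with beta1, encoded by Itgb1. Alpha1, alpha2, alpha10 and alpha11 bind collagens through an inserted domain, alpha3, alpha6 and alpha7 bind laminins of basement membranes, and alpha5 and alpha8 recognise the RGD motif of fibronectin and nephronectin. Alpha9 binds tenascin-C, osteopontin and related proteins. Alpha6 can also pair with beta4, encoded by Itgb4, in the hemidesmosomes of epithelia. On monocytes and their osteoclast progeny, integrins of this kind carry adhesion and migration through marrow and bone, whereas alpha2 and alpha6 are also chains of platelets and alpha11 is known from fibroblasts and other mesenchymal cells.

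Between 15718782 and 25371474 counts were obtained per library. A gene without a count may still stand at up to 3 counts, which came to 0.133 to 0.172 CPM (the usual counts-per-library unit, here with library totals scaled by the TMM method). Femur S15 stood apart, with counts on 40494 genes against 17481 to 23513 in the other libraries and with 13454 genes counted in no other library, at a median of 5 counts. Mandible S23 stood apart in sex-linked genes, with 1440 CPM of Xist and 0 counts over Ddx3y, Eif2s3y, Kdm5d and Uty, where the other libraries had at most 0.553 CPM and 2772 to 4590 counts. By these genes S23 had a female pattern and all other libraries a male one, so sex was not balanced between the sites. The part of sex in the values of S23 was not tested. The label was checked on 8 monocyte markers, whose presence does not show that other cells were absent. They were present in all libraries and summed to 2149 to 3970 CPM in femur libraries and 2095 to 4188 CPM in mandible libraries. Of these, 0 of 8 were called and 1 was at an unadjusted p under 0.05, against 5.18% and 16.4% of all tested genes. With so few markers these counts do not show that the sites were alike in monocytes. Neutrophil markers summed to 3280 to 28660 CPM in femur libraries and 3068 to 7527 CPM in mandible libraries. Markers of some other cell types differed between the sites. All 13 mesenchymal and osteoblast markers were called higher in the mandible (171 to 208 summed CPM in femur libraries, 8995 in S16, 11870 in S19 and 15420 in S23), as were 6 of 7 dental epithelial markers (0.221 to 3.18 CPM against 5770 to 11300) and all 5 tested skeletal muscle markers (1.19 to 13.9 CPM against 1036 to 3761). In the opposite direction, 8 of 9 tested megakaryocyte and platelet markers were called lower in the mandible (662 to 1016 against 81.0 to 116 CPM). The libraries are bulk samples, in which more cells of a type and more RNA per cell cannot be told apart.

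The chain that differed most, Itga11, lies on the plus strand of chr9:62677826-62783982 (GRCm38, GENCODE M21), and Itga3, the next in size of difference, on the minus strand of chr11:95044474-95076801. Their upstream sequences are shown because these chains were under 3 CPM in every femur library and above 5 CPM in every mandible library. Each line gives the 250 bases before a RefSeq start on GRCm38.p6, read 5′ to 3′ on the strand of the gene, at chr9:62677605-62677854 for Itga11 and chr11:95076715-95076964 for the first of the Itga3 starts, with matches to GGGCGG, the core of the GC box, in capitals.
Itga11: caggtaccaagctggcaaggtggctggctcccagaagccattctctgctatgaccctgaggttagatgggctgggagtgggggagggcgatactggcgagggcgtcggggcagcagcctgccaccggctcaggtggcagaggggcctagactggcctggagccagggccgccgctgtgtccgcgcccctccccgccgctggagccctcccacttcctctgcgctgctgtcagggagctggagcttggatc
Itga3: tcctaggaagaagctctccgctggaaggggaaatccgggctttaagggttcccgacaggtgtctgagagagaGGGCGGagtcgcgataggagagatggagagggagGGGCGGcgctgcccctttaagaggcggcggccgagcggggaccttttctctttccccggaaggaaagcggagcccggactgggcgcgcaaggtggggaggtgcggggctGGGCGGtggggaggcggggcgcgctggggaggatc
The 5 motifs searched on both strands, from 250 bases before to 50 bases after a start, were the TATA box (TATAAA), this core of the GC box, the AP-1 site (TGANTCA), the core of RUNX sites (TGTGGT) and the core of TEAD sites (GGAATG), none of which overlapped another in the windows shown. The window of Itga11 held none of them at 68% GC and 16 CpG dinucleotides. That of the Itga3 start shown held the GC box core in 3 places and none of the others, at 66.7% GC and 24 CpG. The window of the other Itga3 start (chr11:95069149-95069448) held the GC box core, the AP-1 site and the RUNX core in 1 place each. It was at 52.3% GC and 5 CpG. Of 32851 promoter windows of the same length, 35.7% held the GC box core, 13.6% the TATA box, 7.81% the AP-1 site, 16.8% the RUNX core and 14.7% the TEAD core, and the medians were 52.7% GC and 7 CpG. The table held 8 of the 10 chains, all but Itga6 and Itga7, and the TATA box was found in the windows of 0 of the 8.

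Of the 9 tested chains, 1 was called in the mandible against the femur, at a Benjamini-Hochberg adjusted p under 0.05 over all tested genes and a fold change of at least 2 in edgeR's quasi-likelihood test. That was Itga11, which rose, and no chain fell past these thresholds. Over all tested genes 5.18% were called, 3.88% higher and 1.3% lower in the mandible. The lowest library of one site lay above the highest of the other for 5 chains, higher in the mandible for Itga3, Itga9 and Itga11 and lower for Itga2 and Itga6, whereas 24.2% of all tested genes were separated in this way, 12.7% higher and 11.5% lower. An unadjusted p under 0.05 was reached by the same 5 chains, 55.6% of the 9, against 16.4% of all tested genes. The median log2 fold change of the 9 chains was -0.12, and that of all tested genes was -0.04.

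**Figure D1:**
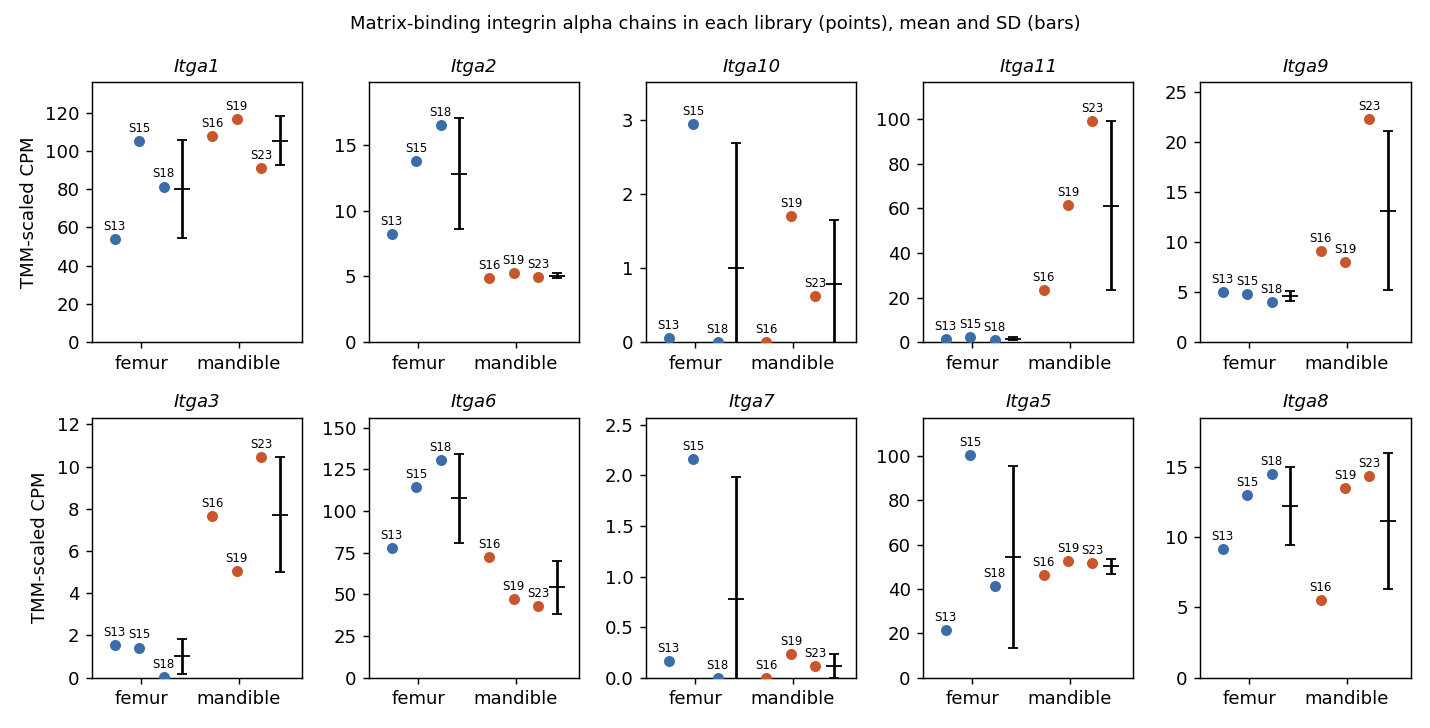
TMM-scaled CPM of the 10 alpha chains (y axes from 0, 1 panel per chain) in the 3 femur libraries (blue) and 3 mandible libraries (orange), with the mean and SD in black and bars that would pass below 0 cut at the axis. Itga11 lay at 1.06 to 2.44 CPM in femur and 23.2 to 98.8 CPM in mandible libraries, and Itga2 and Itga6 were lower in every mandible library than in any femur library. The femur means of Itga7 and Itga10 rested on S15, which was also the highest femur library in Itga5.

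Among the collagen receptors, Itga11 rose and the other 3 chains were not called. Its counts were 26, 53 and 24 in femur S13, S15 and S18, and 464, 1293 and 1728 in mandible S16, S19 and S23. Scaled, these were 1.44, 2.44 and 1.06 CPM against 23.2, 61.4 and 98.8 CPM. The groups were far apart, and within the mandible the libraries themselves spread from S16, the lowest, to S23, the highest. Femur libraries averaged 1.65 ± 0.714 CPM and mandible libraries 61.2 ± 37.8 CPM (SD, n = 3 each). The log2 fold change was 5.21 ± 0.58 (SE), or 37.0-fold, at an adjusted p of 0.00039. The 95% interval of the log2 fold change ran from 3.94 to 6.48. It was called in 6 of 6 fits that left out 1 library, at 5.57 without femur S15 and 4.62 without mandible S23, the latter being the smallest of them. The summed CPM of the 13 mesenchymal and osteoblast markers put the 3 mandible libraries in the same order as Itga11, as did those of the dental epithelial markers (5770, 7331 and 11300) and of the mural and smooth muscle markers (42.6, 100.4 and 171). Those of the skeletal muscle markers (2394, 1036 and 3761) and chondrocyte markers (59.8, 52.4 and 122.5) did not, with S19 lowest. Of the mesenchymal markers, Col1a1 was at 24.3 to 45.3 CPM in femur and 4738 to 7038 CPM in mandible libraries. The part of these cell types in the difference of Itga11 was not tested.

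Itga1, the collagen receptor with the most counts, encodes the alpha1 chain, which prefers basement membrane collagen. It was present in all libraries, at 53.9, 105 and 81.4 CPM in femur S13, S15 and S18 and 108, 117 and 91.3 CPM in mandible S16, S19 and S23. The groups overlapped, since femur S15 was above mandible S23. The log2 fold change was 0.39 ± 0.29 (SE, adjusted p = 0.60), with a 95% interval from -0.24 to 1.02, which reaches just past the threshold of a 2-fold rise. Of its exon bases in GENCODE M21, 3.68% are shared with Gm49395 on the same strand.

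Itga2, whose alpha2 chain is the fibrillar collagen receptor of platelets, ran the other way. Its levels were 8.23, 13.7 and 16.5 CPM in femur S13, S15 and S18 and 4.90, 5.27 and 4.98 CPM in mandible S16, S19 and S23. The mandible libraries were close together and all below the lowest femur library, S13. The means were 12.8 ± 4.20 and 5.05 ± 0.194 CPM (SD, n = 3). With a log2 fold change of -1.34 ± 0.46 (SE), 2.54-fold higher in the femur, it was not called (adjusted p = 0.15). Pf4, a chemokine of platelet granules, was at 92.4 to 289 CPM in femur and 9.35 to 17.0 CPM in mandible libraries. Summed megakaryocyte and platelet markers were 905, 662 and 1016 CPM in femur S13, S15 and S18. They were 116, 81.0 and 116 CPM in mandible S16, S19 and S23. Within the femur these markers were lowest in S15, and Itga2 was lowest in S13. Within the mandible S19 was lowest in the markers and highest in Itga2. The part of megakaryocytes and platelets in the values of Itga2 was not tested.

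Itga10, a collagen receptor of cartilage, was close to the limit of detection. It had 1, 64 and 0 counts in femur S13, S15 and S18 and 0, 36 and 11 counts in mandible S16, S19 and S23, so that S15 held nearly all femur counts. The log2 fold change of -0.36 ± 2.07 (SE, adjusted p = 0.97) had an interval from -4.90 to 4.18 and became 4.55 without S15, at an adjusted p of 0.47. No direction could be read, and 33.5% of its exon bases in GENCODE M21 are shared with Gm42957 on the same strand.

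**Figure D2:**
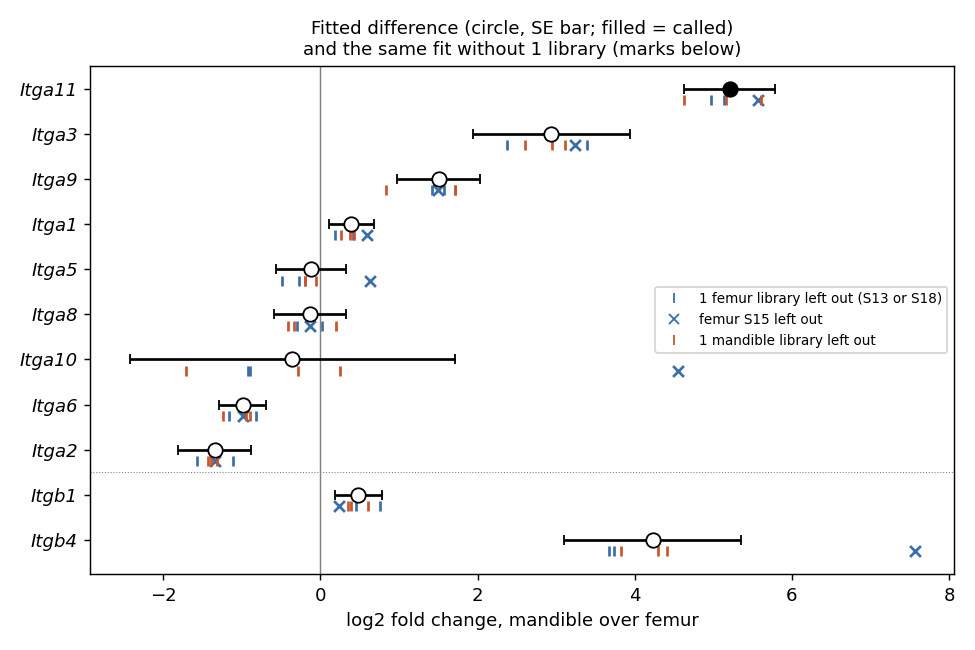
Log2 fold change, mandible over femur, of the 9 tested alpha chains and of Itgb1 and Itgb4 (x axis), as circles with SE bars, filled where called, with the fits that leave out 1 library below each. Only Itga11 among them was called, its 6 other fits stayed between 4.62 and 5.60, and Itga10, Itga5 and Itgb4 moved most when femur S15 was left out.

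Among the laminin receptors, the femur libraries were higher in Itga6 and the mandible libraries in Itga3, and neither difference passed the adjusted threshold. Itga6 encodes the alpha6 chain of leukocytes, platelets, stem cells and epithelia. Its levels were 77.9, 114 and 130.5 CPM in femur S13, S15 and S18, and 72.5, 47.4 and 43.1 CPM in mandible S16, S19 and S23. The groups did not overlap, but the gap between femur S13 and mandible S16 was small. The means were 107.5 ± 26.9 and 54.3 ± 15.9 CPM (SD, n = 3), and the log2 fold change was -0.99 ± 0.30 (SE), 1.98-fold higher in the femur (adjusted p = 0.096). It passed the thresholds after removal of the trend of fold change with gene length, at -1.51 (adjusted p = 0.037), and without the filter on low counts, at -1.04 (adjusted p = 0.033). Platelet markers were higher in the femur libraries as well, but within each site their order was not that of Itga6. The markers were lowest in femur S15 and mandible S19, and Itga6 in femur S13 and mandible S23. The part of platelets in the values of Itga6 was not tested.

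Itga3, the alpha3 chain of epithelia and of many adherent cells, was low in the femur libraries and under 3 counts in S18. It had 28, 31 and 1 counts in S13, S15 and S18, against 153, 106 and 183 counts in mandible S16, S19 and S23. These were 1.55, 1.43 and 0.0442 CPM against 7.66, 5.03 and 10.5 CPM, and every mandible library was above every femur library. The log2 fold change was 2.94 ± 1.00 (SE), 7.66-fold, with a 95% interval from 0.74 to 5.13 and an adjusted p of 0.14. Without the filter on low counts it was called by DESeq2, at 2.98 (adjusted p = 0.012), and by edgeR, at 2.90 (adjusted p = 0.033). Itga7, the laminin receptor of skeletal muscle, had 3, 47 and 0 counts in the femur and 0, 5 and 2 counts in the mandible and was not tested. Of the muscle markers, Acta1, the actin of skeletal muscle, was at 0.276 to 0.922 CPM in femur and at 496 to 1862 CPM in mandible libraries.

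Itgb4, the partner of alpha6 in epithelia, had 0, 79 and 5 counts in femur S13, S15 and S18 and 363, 427 and 609 counts in mandible S16, S19 and S23. The corresponding levels were 0, 3.64 and 0.221 CPM against 18.2, 20.3 and 34.8 CPM, so that the groups did not overlap and the femur counts came almost entirely from S15. The log2 fold change was 4.23 ± 1.12 (SE) with an adjusted p of 0.056, and 7.56 with an adjusted p of 0.00047 without S15. Per kilobase of exon, the ratio of the Itgb4 level to the Itga6 level was 0, 0.0415 and 0.00221 in the femur libraries and 0.326, 0.558 and 1.05 in the mandible libraries. Krt5 and Krt14, keratins of basal epithelium, were at no more than 1.24 CPM in femur and at 32.9 to 51.0 CPM in mandible libraries, and the part of epithelial cells in the values of Itgb4 and Itga3 was not tested. Of the exon bases of Itgb4 in GENCODE M21, 7.66% are shared with B230344G16Rik on the opposite strand. The use of the strand in counting is not given in the sources used here.

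The fibronectin receptor gene Itga5 and the nephronectin receptor gene Itga8 showed no difference beyond the spread of the libraries. Itga5 was at 21.5, 100.3 and 41.2 CPM in femur S13, S15 and S18 and at 46.4, 52.5 and 51.5 CPM in mandible S16, S19 and S23. The mandible libraries were close together and lay inside the range of the femur, whose highest library was S15. Its log2 fold change was -0.12 ± 0.45 (SE, adjusted p = 0.95, 95% interval from -1.10 to 0.87) and turned to 0.63 without S15. Itga8 was at 9.11, 12.99 and 14.5 CPM in femur S13, S15 and S18 and at 5.55, 13.5 and 14.4 CPM in mandible S16, S19 and S23, with S16 lowest. Its log2 fold change was -0.13 ± 0.46 (SE, adjusted p = 0.94, 95% interval from -1.15 to 0.88). The overlap of Itga8 with the antisense gene E030013I19Rik covers 5.05% of its exon bases in GENCODE M21.

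Itga9, the alpha9 chain that binds tenascin-C and osteopontin, was higher in the mandible libraries without being called. It was at 5.03, 4.84 and 4.02 CPM in femur S13, S15 and S18 and at 9.11, 8.07 and 22.3 CPM in mandible S16, S19 and S23. The femur libraries were close together, and S23 stood above the other mandible libraries. A log2 fold change of 1.51 ± 0.53 (SE), 2.84-fold, had an adjusted p of 0.15. Without S23 it was 0.84 (adjusted p = 0.53), so that much of its size came from that library, which was also the highest of the mandible in Itga3, Itga8 and Itga11.

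Compared per kilobase of exon, the order of the chains differed between the sites. In the femur Itga6 (11.8 ± 2.95 CPM per kilobase, SD, n = 3) and Itga5 (11.0 ± 8.31) were highest and within each other's spread, followed by Itga1 (4.31 ± 1.38). Itga2 (1.80 ± 0.589) and Itga8 (1.66 ± 0.377) came next, also within each other's spread, above Itga9 (0.602 ± 0.0695). The last 4, Itga11 (0.321 ± 0.139), Itga10 (0.193 ± 0.325), Itga3 (0.176 ± 0.146) and Itga7 (0.0955 ± 0.148), were not ordered beyond their spread, and in S15 Itga10 was above Itga11. In the mandible the mean of Itga11 was 11.9 ± 7.37 CPM per kilobase, but its libraries ran from 4.53 in S16 to 19.3 in S23, and in S16 it was below Itga5, Itga6 and Itga1. Its place in the order was therefore not fixed. Itga5 (10.2 ± 0.663) was above Itga6 (5.94 ± 1.74) and Itga1 (5.66 ± 0.689), which did not differ beyond their spread. Below them Itga9 (1.71 ± 1.03), Itga8 (1.51 ± 0.658) and Itga3 (1.35 ± 0.476) overlapped, and Itga2 (0.708 ± 0.0272), Itga10 (0.150 ± 0.167) and Itga7 (0.0144 ± 0.0146) were lowest.

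The sum of the 10 chains per kilobase was 19.4, 44.4 and 32.0 CPM per kilobase in femur S13, S15 and S18 and 31.6, 38.9 and 46.9 in mandible S16, S19 and S23, and the groups overlapped. Within this sum Itga11 made up 1.44%, 1.07% and 0.645% in the femur libraries and 14.3%, 30.8% and 41.1% in the mandible libraries. Itga6 made up 43.9%, 28.2% and 44.6% in the femur and 25.1%, 13.3% and 10.1% in the mandible. No mandible library thus reached the lowest femur share of Itga6, which was that of S15. The share of Itga1 was 12.7% to 14.9% in femur and 10.5% to 18.3% in mandible libraries, and the groups overlapped. Per kilobase, the collagen-binding chains summed to 6.62 ± 2.15 CPM in femur and 18.4 ± 7.03 in mandible libraries, the laminin-binding chains to 12.0 ± 2.86 and 7.31 ± 1.72, and the RGD-binding chains to 12.7 ± 8.50 and 11.7 ± 1.31 (SD, n = 3). The ratio of the Itga11 level to the Itga1 level per kilobase was 0.0472 to 0.0967 in the femur and 0.78, 1.91 and 3.92 in mandible S16, S19 and S23. Shares of a sum are not independent, since a higher share of 1 chain lowers the others.

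**Figure D3:**
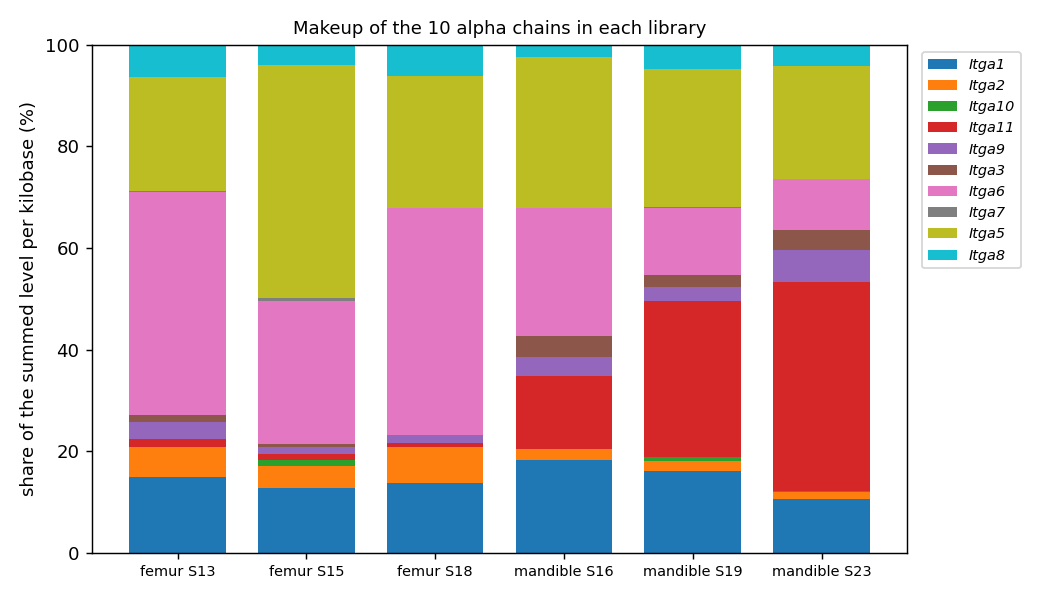
Share of each alpha chain in the summed level per kilobase of exon (y axis, %) in each of the 6 libraries (bars). Itga11 (red) took 0.645% to 1.44% of the sum in femur and 14.3% to 41.1% in mandible libraries, and Itga6 (pink) took 28.2% to 44.6% and 10.1% to 25.1%.

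The common partner Itgb1 was present at 195, 143 and 273 CPM in femur S13, S15 and S18 and 236, 319 and 299.6 CPM in mandible S16, S19 and S23. The groups overlapped, and the log2 fold change was 0.49 ± 0.30 (SE, adjusted p = 0.51, 95% interval from -0.18 to 1.15). The summed level of the 10 alpha chains per kilobase was 0.406, 1.26 and 0.479 of the level of Itgb1 in the femur libraries and 0.546, 0.498 and 0.638 of it in the mandible libraries. Femur S15 was the library in which the alpha chains exceeded Itgb1.

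The integrin chains outside the group were called in both directions. Of 8 other alpha chains, Itgav, the vitronectin receptor chain, rose by 1.03 ± 0.26 on the log2 scale (SE, adjusted p = 0.042) and was called in 2 of 6 fits without 1 library, those without femur S15 and without mandible S16. Itga2b, the fibrinogen receptor chain of platelets, fell by 2.61 ± 0.30 (adjusted p = 0.00048). The leukocyte chains with the most counts were not called, at log2 fold changes of 0.45 for Itga4 (adjusted p = 0.46), 0.56 for Itgal (0.36) and 0.11 for Itgam (0.94). Among 6 other beta chains, Itgb5 rose by 1.88 ± 0.30 (adjusted p = 0.0037) and Itgb3, the partner of alpha2b on platelets and of alphav on osteoclasts, fell by 1.67 ± 0.28 (adjusted p = 0.0051, and 0.056 without mandible S19). Itgb2 (0.28, adjusted p = 0.78) and Itgb7 (0.48, adjusted p = 0.58) were not called.

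The ligands of these receptors were read from the same fit. Of 18 collagen chain genes 15 were tested and 12 were called, all higher in the mandible, with a median log2 fold change of 4.54 over the 15. Col3a1 rose by 8.49 ± 0.56 (SE), Col1a1 by 7.49 ± 0.52 and Col5a2 by 6.86 ± 0.46, and Col1a2, the partner of Col1a1 in type I collagen, by 5.91 ± 0.43. The collagen genes summed to 121 to 220 CPM in femur libraries and 9869, 13070 and 17830 CPM in mandible S16, S19 and S23. With 1 library left out, 11 to 13 collagen genes were called. Several of them are also on the list of mesenchymal markers, so these counts and the marker counts are not separate observations.

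Of 11 laminin chain genes 9 were called higher in the mandible, with a median log2 fold change of 3.25, and Lama1 and Lama5 were not called. Lama3 (6.92 ± 0.67, SE, adjusted p = 0.00018) and Lamb3 (5.24 ± 0.37, adjusted p = 1.9e-05), chains of epithelial basement membranes, were among those that rose. Lamb1, a chain of many basement membranes, rose by 3.62 ± 0.55 (adjusted p = 0.0029). With 1 library left out, 6 (without mandible S19) to 10 laminin genes were called. In these libraries the laminin genes were at a summed 37.4 to 60.5 CPM in femur libraries and 591, 749 and 1297 CPM in mandible S16, S19 and S23.

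Among the fibronectin and other glycoprotein ligands, 5 of 8 tested genes were called, all higher in the mandible. All 8 had a log2 fold change above 0. Fn1, fibronectin itself and the most abundant of them, was at 1061, 2325 and 2709 CPM in femur S13, S15 and S18 and 4988, 4626 and 2551 CPM in mandible S16, S19 and S23. Mandible S23 lay below femur S18, and the difference was not called (log2 fold change 1.00 ± 0.45, adjusted p = 0.30). Npnt, the nephronectin that alpha8 binds, rose by 5.24 ± 1.24 (adjusted p = 0.032), and Spp1, the osteopontin that alpha8 and alpha9 bind, by 2.42 ± 0.36 (adjusted p = 0.0024). Nid1, a linker of basement membranes, rose by 4.91 ± 0.52, and Svep1, a ligand of alpha9, by 3.39 ± 0.44 (adjusted p = 0.00032 and 0.00093). Tnc, the tenascin-C that alpha9 binds, was at a log2 fold change of 1.03 (adjusted p = 0.31) with overlapping groups, and at 0.15 without mandible S23. Emilin1, another ligand of alpha9, was at 0.73 (adjusted p = 0.16). Npnt was called in 1 of 6 fits without 1 library, that without femur S15.

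**Figure D4:**
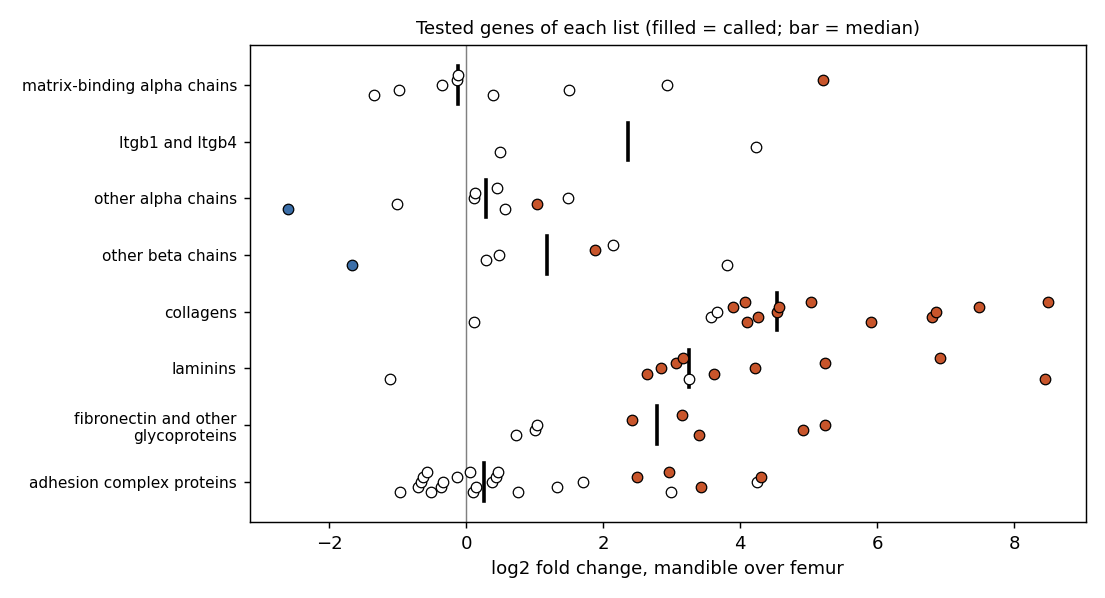
Log2 fold change, mandible over femur (x axis), of each tested gene (circles, filled where called, orange higher and blue lower in the mandible) in 8 lists of integrin chains, ligands and adhesion complex proteins, with the median as a bar. The medians were -0.12 for the matrix-binding alpha chains, 4.54 for the collagens and 3.25 for the laminins.

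Of 24 genes for proteins of integrin adhesion complexes, their signalling and their regulation, 4 were called, all higher in the mandible, and the median log2 fold change was 0.25. These were Parva (4.30 ± 0.90, SE, adjusted p = 0.017), Fermt2 (3.43 ± 0.80, adjusted p = 0.030), Tns2 (2.97 ± 0.76, adjusted p = 0.048) and Tln2 (2.49 ± 0.49, adjusted p = 0.013). Parva and Fermt2 are a parvin and a kindlin of adherent cells, and Tln2 is a talin. The talin and the kindlin that leukocytes use most were at log2 fold changes of 0.37 for Tln1 (adjusted p = 0.70) and -0.64 for Fermt3 (adjusted p = 0.26), and Zyx was at -0.14 (adjusted p = 0.89). The other parvins ran opposite to Parva without being called, at -0.97 for Parvb (adjusted p = 0.058) and -0.70 for Parvg (adjusted p = 0.42). Parvb was lower in every mandible library than in any femur library. Without femur S13 or without mandible S23, 0 of the 24 genes were called.

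**Figure D5:**
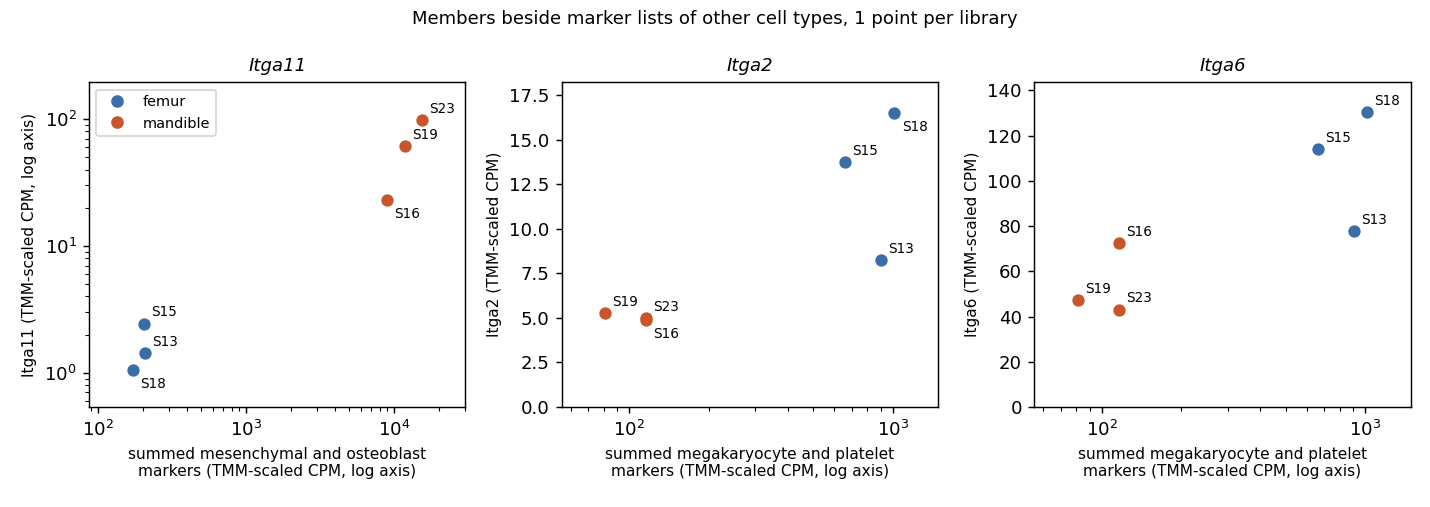
CPM of Itga11, Itga2 and Itga6 (y axes) in each library against the summed CPM of marker genes of another cell type (x axes, log scale; mesenchymal and osteoblast for Itga11, megakaryocyte and platelet for Itga2 and Itga6), femur in blue and mandible in orange. The sites were separated on both axes, from 171 to 208 against 8995 to 15420 CPM of mesenchymal markers and from 662 to 1016 against 81.0 to 116 CPM of platelet markers. Within each site the order of the libraries in Itga2 and in Itga6 was not that of the platelet markers.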

How the data were processed

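Monocyte RNA was sequenced in 6 libraries, 3 from the femur and 3 from the mandible. Per the submitters' processing notes, reads were aligned by HISAT2 2.1.0 to GRCm38 and assigned to genes by featureCounts. The table deposited by the authors gives unnormalized counts for each gene. Strand and multi-mapping settings are not given in the sources used here. Of 52081 genes shared with GENCODE M21, 3031 had their deposited interval inside the M21 gene. Positions are therefore those of M21, matched by identifier, and lengths those of the deposited table. Shared exon bases are also those of M21 and may differ in the annotation used for counting.

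The fit used edgeR 4.0.16 under R 4.3.3 (filterByExpr, at least 10 counts and 15 in total, TMM, quasi-likelihood test, prior count 0.125, no covariates) and adjusted by Benjamini-Hochberg over 18114 genes. A gene was called when its adjusted p was under 0.05 and it changed at least 2-fold. A two-sided exact permutation test of log2(CPM + 0.1) in each chain cannot go below p = 0.1. Promoters were from RefSeq. Named genes were all 10 chains, Itgb1 and Itgb4, and in each list up to 3 genes of highest mean CPM and up to 3 called genes of largest change in each direction. A gene that meets this rule is not reported here. Gm49395 and the other overlapping genes, the sex-linked genes, Krt5, Krt14, Lama1, Lama5, Tln2 and Tnc were named after their values were seen. So were Ibsp, Runx2, Dcn, Postn, Klk4, Amtn, Rgs5, Notch3, Parvb and Parvg. The chains and lists were chosen with earlier results of these data known.

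Alternatives were DESeq2 1.42.0 without the filter on low counts, limma-voom (limma 3.58.1), RLE or no normalization factors, other filters, no fold change threshold, removal of a loess trend (span 0.4) on gene length, and each library left out. The fit was tested on simulated counts. Protein sequences were not used here.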

Additional observations from a re-analysis of the deposited data

How the results depend on the processing

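Itga11 was called under every alternative, at log2 fold changes of 4.62 to 5.60 with 1 library left out. The 938 calls over all genes became 1746 in DESeq2 and 1590 in edgeR without a filter. DESeq2 was also run without the filter, over 42225 genes, so its counts mix both changes. Calls ranged from 434 (without mandible S19) to 1565 (without femur S15) with 1 library left out, the others being 509 without S13, 552 without S18, 551 without S23 and 764 without S16. The 1 called chain became 2 in DESeq2 (with Itga3), 2 with the length trend removed (with Itga6) and 3 without a filter (with Itga3 and Itga6), and stayed at 1 in all 6 fits without 1 library. Itgb4 was called by limma-voom (6.19), without a filter (4.23), with the length trend removed (4.05) and without S15 (7.56).

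Signs that changed were those of chains not called. Itga1 was -0.34 with the length trend removed. Itga5 was 0.14 in limma-voom and ranged from -0.49 to 0.63 with 1 library left out, 0.63 being without S15. Itga8 ranged from -0.41 to 0.19, at 0.02 without S18 and 0.19 without S16. Itga10 was 0.78 in limma-voom and ranged from -1.70 to 4.55, at 4.55 without S15 and 0.25 without S16, and the filter on mean CPM removed it. The causes were not tested. Removal of the length trend moved the median of all genes from -0.04 to -0.18. Median log2 fold changes were -0.65 in the 10% shortest and 0.23 in the 10% longest tested genes, and the tested chains had a median length of 7133 bases. No paired analysis was possible because the labels give the sites no shared replicate numbers. At these depths 3 counts correspond to 0.133 to 0.172 CPM, which limits Itga7 and Itga10.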

Other observations

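Other lists of cell types were measured beside the chains. Over all tested genes, 5.18% were called and 16.4% had an unadjusted p under 0.05. Endothelial markers (0 of 7 tested called, 58.8 to 81.9 summed CPM in femur and 48.9 to 81.0 in mandible libraries), T and NK cell markers (0 of 6, 33.6 to 117 and 42.9 to 102), B cell markers (0 of 4), Schwann cell markers (0 of 3 tested) and stem and progenitor markers (0 of 5 tested) were not called in edgeR, with an unadjusted p under 0.05 for 0, 1, 0, 0 and 1 gene. All 6 mural and smooth muscle markers had a log2 fold change above 0, and 3 were called, Tagln at 5.49, Myh11 at 5.08 and Acta2 at 3.26. The 6 were at a summed 7.86 to 18.3 CPM in femur libraries and 42.6, 100.4 and 171 CPM in mandible S16, S19 and S23. Tagln was called in 5 of 6 fits without 1 library (adjusted p = 0.054 without mandible S19) and Acta2 in 3 of 6, with the call lost without femur S13, mandible S19 or mandible S23. All 4 tested chondrocyte markers had a log2 fold change above 0, and 2 were called. These were Col2a1 (4.10, called in 3 of 6 fits without 1 library and lost without the same libraries as Acta2) and Comp (3.73, called in 6 of 6). All 7 neutrophil markers had a log2 fold change below 0, with a median of -1.91 and an unadjusted p under 0.05 for 4. Of the 7, 1 was called, S100a8, which fell by 2.77. It was called in 1 of 6 fits without 1 library, that without femur S15, with adjusted p of 0.073 to 0.13 in the others. Summed over the list, femur S15 held 3280 summed CPM where the other femur libraries held 28660 and 20130. Of 4 erythroid markers, Hba-a1 and Hbb-bs fell by 2.98 and 2.50, each called in 2 of 6 fits without 1 library, those without femur S15 or S18. Hba-a1 was at 461 CPM in femur S13 against 61.4 and 71.6 CPM in S15 and S18, and without S13 the log2 fold changes were -1.41 (adjusted p = 0.065) and -1.08 (adjusted p = 0.24).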
